A study of Homo sapiens with 29 samples.

Results

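Aminoacyl-tRNA synthetases are the enzymes that load amino acids onto transfer RNAs (tRNAs), and their genes were followed across knockdowns and compound treatments of human lung cancer cells. The members are a fixed list of 36 gene symbols, all of them found among the 23710 symbols of the deposited expression table under their older names (AARS for the gene now called AARS1). They fall into 20 genes for cytosolic enzymes and 16 genes, with names ending in 2, for mitochondrial enzymes. Every one of the 36 passed the filter on low values in every comparison, so no member was lost.

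Polyadenylated RNA was sequenced in 3 libraries per group from H2122 and H460, established lung cancer cell lines in culture. In H2122, cells with a short hairpin RNA (sh) against NRF2 (shNRF2) and control cells with a hairpin against GFP (shGFP) were sampled at 24 h. In H460, shNRF2, shNR0B1, shSNW1 and shGFP cells were sampled at 72 h, so cell line and time differ together between the NRF2 knockdowns and cannot be told apart. In a separate experiment H460 cells received 30 µM of BPK29, 30 µM of BPK9 or the solvent DMSO for 12 h. BPK29 and BPK9 are given by code only, each target is named without saying how many hairpins were used, and each line is 1 line. Both lines carry mutant KEAP1, the adaptor that sends the transcription factor NRF2 for degradation. NR0B1, an orphan nuclear receptor, represses transcription mostly through other receptors. SNW1 takes part in both transcription and pre-mRNA splicing.

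Each synthetase recognises its own amino acid and the matching tRNAs, and mitochondria, which translate their own messages, mostly use separate nuclear-encoded enzymes. Several cytosolic enzymes are held together with the scaffold proteins AIMP1, AIMP2 and EEF1E1 in the multisynthetase complex. Transcription of many cytosolic synthetase genes is known to be raised by ATF4, the transcription factor of the integrated stress response, through C/EBP-ATF response elements, and in KEAP1-mutant lung cancer cells NRF2 is known to act on ATF4.

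Promoter sequences are shown for the members that hold the C/EBP-ATF response element, because 12 of the cytosolic members are known ATF4 targets and these are followed as a group below. Windows of 250 bases before to 50 bases after each start came from RefSeq (GRCh38.p14) and were found for 30 members, 16 cytosolic and 14 mitochondrial. DARS, LARS, VARS, YARS, AARS2 and VARS2 were not among them. The start used was not always the outer end of the gene. In CARS2, FARS2 and TARS the whole window lies inside the annotated gene, and in EARS2 the start does. The letters TGATGNAA, searched on both strands, were present in 6 of 16 cytosolic windows and 1 of 14 mitochondrial windows, against 3.67% of 27305 promoters of the same length. The stretches below run 5′ to 3′ on the strand of the gene, with the match in capitals (TTGCATCA is the reverse complement of TGATGCAA) and up to 20 bases on either side.

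AARS, chr16:70289666-70289713, minus strand: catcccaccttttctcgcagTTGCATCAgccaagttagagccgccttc
CARS, chr11:3057418-3057445, minus strand: cgcgacttccggggcggcggTTGCATCA
IARS, chr9:92293698-92293730, minus strand: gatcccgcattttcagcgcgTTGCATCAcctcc
MARS, chr12:57488044-57488071, plus strand: aagcgggaggccggttccggTTGCATCA
NARS, chr18:57621815-57621842, minus strand: gccctcagatctacgctctcTGATGCAA
TARS, chr5:33440947-33440974, plus strand: ggggttagggcgcctttcgaTTGCATCA
YARS2, chr12:32756067-32756114, minus strand: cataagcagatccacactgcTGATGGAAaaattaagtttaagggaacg

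All 6 cytosolic matches read TGATGCAA, whose letters were looked at separately after these matches had been seen and occur in 0.923% of all promoters and in 0 of 14 mitochondrial windows. The first base of the match lies at -2 in CARS, -13 in IARS, -4 in MARS, 15 in NARS and 3 in TARS, counted from the start, and at -187 in AARS. The single mitochondrial match, in YARS2, differs in its wildcard base and lies at -197. The core of the antioxidant response element, TGACNNNGC, was found in 3 of 16 cytosolic windows (KARS, TARS, WARS) and 2 of 14 mitochondrial windows (NARS2, RARS2), against 13.6% of all promoters. The E-box CACGTG was found in IARS and in 3 mitochondrial windows (CARS2, EARS2, MARS2), against 7.43% of all promoters, and it overlaps none of the other matches shown. A match in these letters is a description of the window, not evidence of a bound site.

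Recovered depth ran between 16708703 and 24611105 reads in the knockdown libraries and between 19095331 and 24848969 in those of the compounds, and a member had between 98 reads (PARS2, its lowest library) and 17163 (IARS2, its highest). The deposited values are FPKM, reads per kilobase of gene scaled between libraries. Fold changes are log2 differences of FPKM + 1 with standard errors (SE) over 3 against 3 libraries, which understates the change of low genes. A gene was called at a limma p below 0.05 after Benjamini-Hochberg adjustment over all genes tested. The labels do not say whether replicate libraries came from separate cultures, so the p-values measure only the spread between libraries, which may be technical, and bulk RNA does not separate fewer cells from less RNA per cell. The targeted transcripts were lower after their own hairpins: NFE2L2, which encodes NRF2, by -1.11 in H2122 and -0.67 in H460, NR0B1 by -1.34 and SNW1 by -0.65. NR0B1 also changed by -3.32 in H2122 and -2.27 in H460 after NRF2 knockdown, so the NRF2 knockdowns lower both transcripts. In H460 NFE2L2 was called higher after NR0B1 knockdown (0.33) and SNW1 knockdown (0.40), and NR0B1 was called higher after SNW1 knockdown (0.33). SNW1 was called at -0.20 in H460 and 0.11 in H2122 after NRF2 knockdown, and was not called after NR0B1 knockdown. Sums of 5 epithelial markers moved with some knockdowns, at 3884 to 4012 FPKM in H2122 shNRF2 and 2566 to 2580 FPKM in H2122 shGFP libraries, and at 2058 to 2170 FPKM in shNRF2, 1198 to 1223 FPKM in shNR0B1, 1884 to 1943 FPKM in shSNW1 and 1972 to 2249 FPKM in shGFP libraries of H460. The epithelial cadherin gene CDH1 was near 0 in H460, where 5 fibroblast and endothelial markers summed to 13.9 to 14.9 FPKM in shNRF2, 15.4 to 16.6 FPKM in shNR0B1, 5.98 to 6.39 FPKM in shSNW1 and 7.17 to 7.89 FPKM in shGFP libraries. In H2122 that sum was 13.9 to 14.5 FPKM in shNRF2 and 9.42 to 10.4 FPKM in shGFP libraries. These sums cover members that moved in opposite directions. After NRF2 knockdown in H460, means in shGFP and shNRF2 libraries were 0.8 and 10.3 FPKM for DCN and 6.18 and 3.46 FPKM for COL3A1. COL1A1 was not called there. Of 4 epithelial markers tested there, 1 rose (KRT19, 940 and 1357 FPKM) and 3 fell, KRT18 the most (608 and 284 FPKM). The summed immune markers stood at 105 to 109 FPKM in H2122 shNRF2 libraries and 46.2 to 47.5 FPKM in H2122 shGFP libraries with CD3E at 0 in both. All 3 immune markers that passed the filter in H2122 were called higher after NRF2 knockdown. Means in H2122 shGFP and shNRF2 libraries were 45.5 and 96.5 FPKM for CD68, 0.359 and 5.16 for LYZ, and 0.327 and 4.61 for CD79A. In H460 the 2 immune markers tested were CD14 and CD68. CD14 changed by 0.49, 0.88 and -0.82 after NRF2, NR0B1 and SNW1 knockdown, and CD68 was called only after NRF2 knockdown, at -0.21. The part of all these markers in the results below was not tested.

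Levels differed widely among the members. The most abundant member in H460 shGFP cells was IARS2, the mitochondrial isoleucyl enzyme, at 197 ± 5.75 FPKM (SD, n = 3), followed by WARS, the tryptophanyl enzyme, at 149 ± 5.92 FPKM. The next ones, IARS (112 ± 3.1 FPKM) and KARS (110 ± 0.527 FPKM), did not differ beyond their spread. KARS, whose gene encodes both the cytosolic and the mitochondrial lysyl enzyme, led in H2122 shGFP cells at 168 ± 2.19 FPKM, ahead of IARS2 at 138 ± 0.76 FPKM and TARS, the threonyl enzyme, at 120 ± 1.04 FPKM. At the other end PARS2, the mitochondrial prolyl enzyme, averaged 2.59 ± 0.282 FPKM in H460 and 3.2 ± 0.126 FPKM in H2122. VARS and VARS2, the valyl enzymes, are left out of this order, because the lengths behind their FPKM values were 26617 and 22422 bases against 1832 to 5015 bases for the other 34 members. No other mitochondrial member passed 33.9 ± 0.387 FPKM, the level of HARS2 in H460 shGFP cells.

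**Figure D1:**
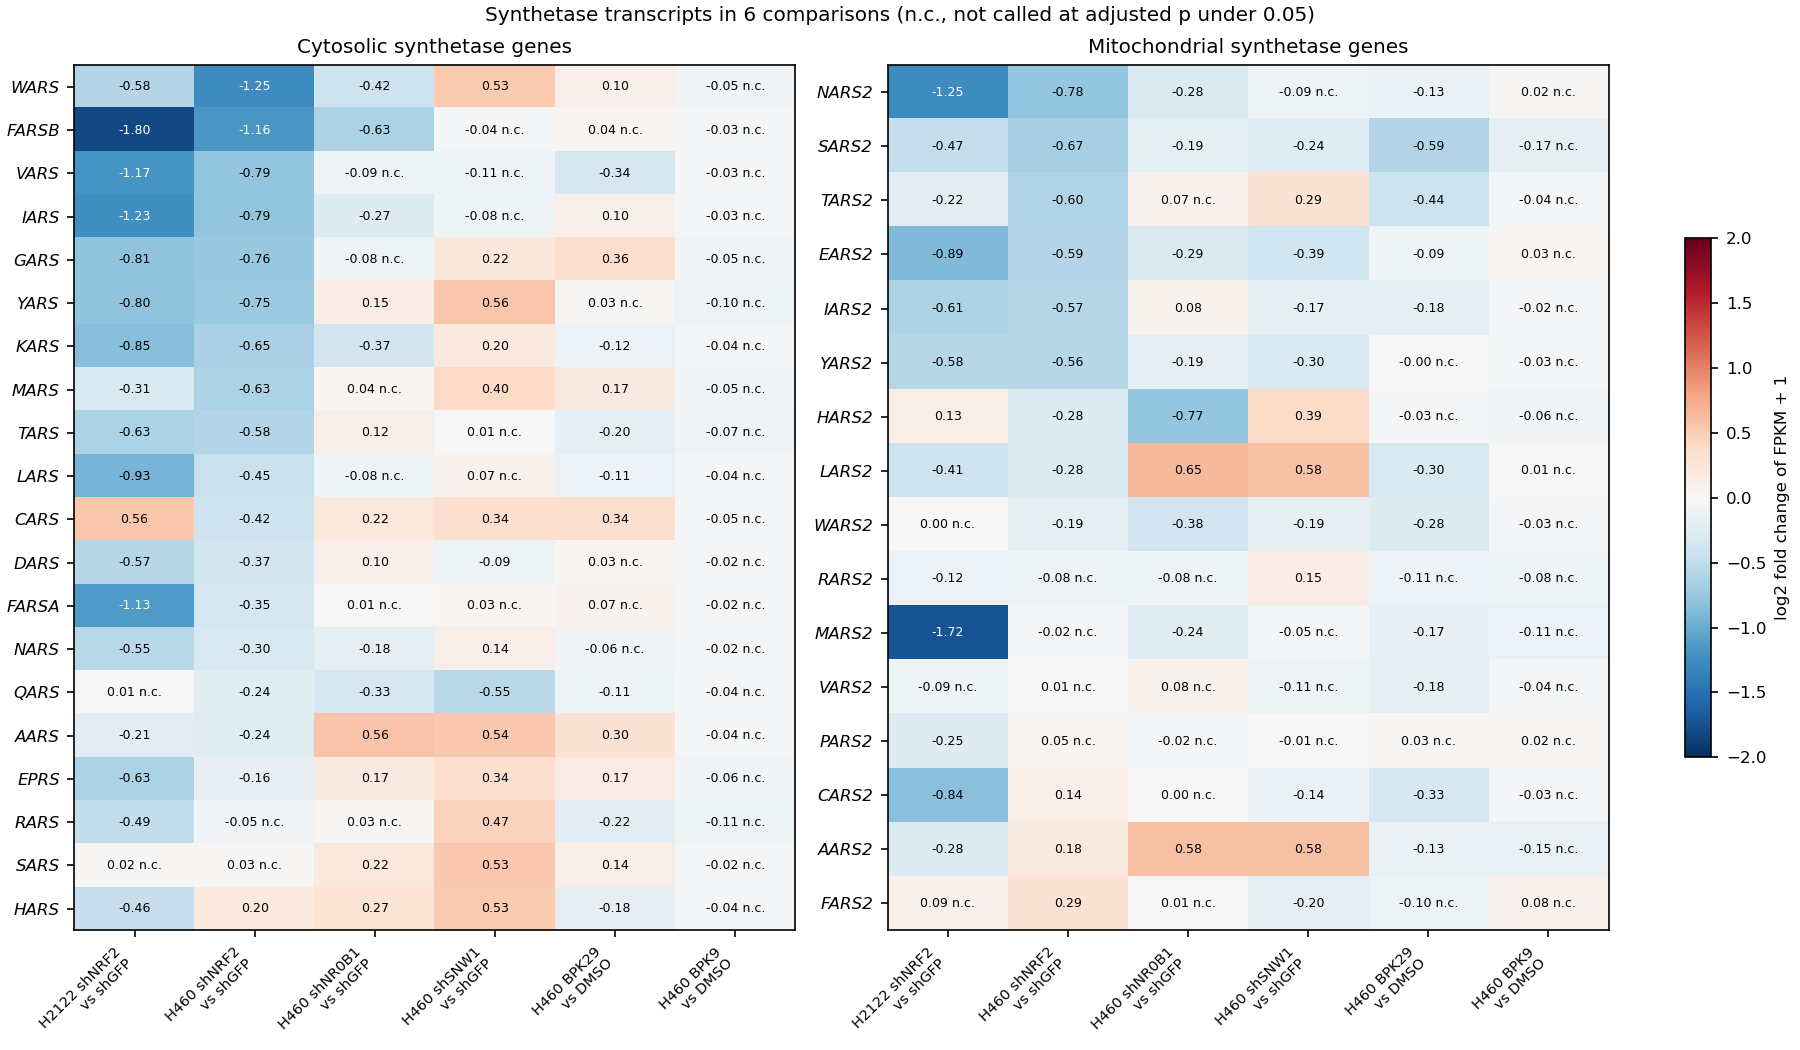
Log2 fold change of FPKM + 1 for the 20 cytosolic members (left) and the 16 mitochondrial members (right), 1 row per gene and 1 column per comparison, each over 3 against 3 libraries. Blue is lower and red is higher in the first-named group, and n.c. marks a gene not called at an adjusted p below 0.05. Both NRF2 knockdown columns are mostly blue, the shSNW1 column is mostly red among cytosolic members, and no BPK9 cell is called.

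NRF2 knockdown in H2122 lowered most of the synthetase transcripts. Of the 20 cytosolic genes 17 fell, 1 rose and 2 were not called, with a median log2 change of -0.60. Of the 16 mitochondrial genes 12 fell, 1 rose and 3 were not called, with a median of -0.35. Over all 11710 genes tested the median was 0.09, and limma called 87.3% of them, 48.8% higher and 38.5% lower. Being called is the usual state of a gene here, so the counts are read by direction, and the direction of the set as a whole was not tested.

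FARSB, the beta subunit of the phenylalanyl enzyme, stood at 23.7, 22.0 and 23.7 FPKM in H2122 shNRF2 cells, against 82.6, 84.2 and 82.1 FPKM in H2122 shGFP cells. No library of either group came near the other, and the log2 change of -1.80 ± 0.032 was the lowest of any cytosolic member (limma, adjusted p = 6.55e-11). Its partner FARSA, the alpha subunit, stood at 26.6, 26.7 and 29.6 FPKM in shNRF2 cells, against 61.9, 60.8 and 62.4 FPKM in shGFP cells, a change of -1.13 ± 0.0398. Both subunits of this enzyme thus fell in this line.

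The multisynthetase complex had 7 of its 8 members lower, the exception being QARS, the glutaminyl enzyme. Over all genes tested in this line, 38.5% were lower. IARS, the isoleucyl enzyme of the complex, stood at 28.8, 29.5 and 29.3 FPKM in shNRF2 cells, against 69.3, 69.7 and 70.0 FPKM in shGFP cells (-1.23 ± 0.023, limma, adjusted p = 8.74e-11). LARS, the leucyl enzyme, changed by -0.93, KARS by -0.85, EPRS, which carries both the glutamyl and the prolyl activity, by -0.63, DARS, the aspartyl enzyme, by -0.57, RARS, the arginyl enzyme, by -0.49 and MARS, the methionyl enzyme, by -0.31. QARS had 61.8, 60.6 and 58.2 FPKM in shNRF2 cells and 58.8, 58.9 and 61.5 FPKM in shGFP cells, with overlapping libraries (0.01 ± 0.0302, limma, adjusted p = 0.759). The 3 scaffold genes fell as well, AIMP2 by -1.18, EEF1E1 by -0.94 and AIMP1 by -0.60. MARS overlaps DDIT3 and ARHGAP9 in the genome, YARS overlaps S100PBP, CARS2 overlaps ING1, EARS2 overlaps GGA2 and FARS2 overlaps LYRM4, and the library kit named in the labels does not mark strand, so reads of these pairs may be shared.

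Among the free-standing cytosolic enzymes, GARS, the glycyl enzyme of both compartments, stood at 46.8, 48.9 and 47.8 FPKM in shNRF2 cells, against 86.1, 83.5 and 84.1 FPKM in shGFP cells (-0.81 ± 0.0253). YARS, the tyrosyl enzyme, changed by -0.80, TARS by -0.63, WARS by -0.58, NARS, the asparaginyl enzyme, by -0.55, HARS, the histidyl enzyme, by -0.46 and AARS, the alanyl enzyme, by -0.21. VARS stood at 3.01, 2.93 and 3.01 FPKM in shNRF2 cells, against 7.91, 7.84 and 8.18 FPKM in shGFP cells (-1.17 ± 0.0424). The group had 1 clear exception. CARS, the cysteinyl enzyme, rose, with 26.8, 26.9 and 26.1 FPKM in shNRF2 cells against 17.4, 17.5 and 18.4 FPKM in shGFP cells, and its groups did not overlap (0.56 ± 0.0315, limma, adjusted p = 1.01e-07). SARS, the seryl enzyme, had 20.7, 21.2 and 21.4 FPKM in shNRF2 cells and 20.9, 20.4 and 21.1 FPKM in shGFP cells, which overlap (0.02, limma, adjusted p = 0.507). With median-ratio scaling in the fit, which moves the median of all genes by -0.09, QARS and SARS were instead called lower at -0.09 (limma, adjusted p = 0.0159) and -0.08 (adjusted p = 0.0273).

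Mitochondrial changes lay between -1.72 and 0.13, a narrower range than the -1.80 to 0.56 of the cytosolic members. MARS2, the mitochondrial methionyl enzyme, stood at 2.85, 3.08 and 2.96 FPKM in H2122 shNRF2 cells, against 12.1, 11.3 and 12.8 FPKM in shGFP cells (-1.72 ± 0.052, limma, adjusted p = 1.39e-09). NARS2, the asparaginyl enzyme, stood at 3.89, 3.62 and 3.65 FPKM in shNRF2 cells, against 10.0, 10.4 and 10.3 FPKM in shGFP cells (-1.25 ± 0.0429). Both were well clear of their controls. EARS2, the glutamyl enzyme that also charges the glutamine tRNA in mitochondria before the amidation step, changed by -0.89, CARS2 by -0.84, IARS2 by -0.61 and YARS2 by -0.58. HARS2 was called higher at 0.13 ± 0.0268 (limma, adjusted p = 0.00113), a call that was lost with median-ratio scaling. FARS2, VARS2 and WARS2 were not called. Of the 4 mitochondrial elongation factor genes 3 fell, with GFM2 not called.

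NRF2 knockdown in H460 gave the same counts for the cytosolic genes and a smaller shift. Again 17 of 20 fell, 1 rose and 2 were not called, with a median of -0.43, while 9 of 16 mitochondrial genes fell, 3 rose and 4 were not called, with a median of -0.23. Over 11938 genes the median was 0.01, and 79.8% were called, 40.9% higher and 39.0% lower. Summed over the 20 cytosolic genes the level was 977 to 984 FPKM in shNRF2 libraries and 1401 to 1428 FPKM in shGFP libraries of H460, and summed over the 16 mitochondrial genes it was 301 to 304 FPKM in shNRF2 libraries and 405 to 414 FPKM in shGFP libraries. In H2122 the cytosolic sum was 836 to 845 FPKM in shNRF2 libraries and 1315 to 1328 FPKM in shGFP libraries, and the mitochondrial sum 230 to 235 FPKM in shNRF2 libraries and 328 to 333 FPKM in shGFP libraries. The ratio of the cytosolic to the mitochondrial sum was lower after NRF2 knockdown in every library of both lines, at 3.56 to 3.65 in H2122 shNRF2 and 3.98 to 4.02 in H2122 shGFP, and at 3.24 to 3.25 in H460 shNRF2 and 3.39 to 3.50 in H460 shGFP. IARS2 alone makes up a large share of the mitochondrial sum. Without it, in a sum added after the data had been seen, the ratio was 5.84 to 5.95 in H2122 shNRF2 and 6.78 to 6.94 in H2122 shGFP, and 5.73 to 5.85 in H460 shNRF2 and 6.56 to 6.85 in H460 shGFP.

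WARS led the H460 changes. It stood at 63.1, 62.4 and 60.9 FPKM in H460 shNRF2 cells, against 143, 150 and 155 FPKM in H460 shGFP cells (-1.25 ± 0.0608, limma, adjusted p = 2.33e-10). FARSB followed, with 41.0, 41.6 and 42.7 FPKM in shNRF2 cells against 98.6, 97.0 and 89.1 FPKM in shGFP cells (-1.16 ± 0.0429, limma, adjusted p = 1.49e-11). Neither gene had overlapping groups. VARS changed by -0.79, IARS by -0.79, GARS by -0.76, YARS by -0.75, KARS by -0.65, MARS by -0.63 and TARS by -0.58. RARS at -0.05 (limma, adjusted p = 0.394) and SARS at 0.03 (limma, adjusted p = 0.65) were not called, and HARS rose, with 50.5, 50.1 and 51.1 FPKM in shNRF2 cells against 42.2, 44.6 and 45.1 FPKM in shGFP cells (0.20 ± 0.0318). Of the mitochondrial members NARS2 stood at 6.77, 7.32 and 7.19 FPKM in shNRF2 cells, against 12.8, 13.0 and 12.9 FPKM in shGFP cells (-0.78 ± 0.0415), and SARS2, the seryl enzyme, changed by -0.67. TARS2, the threonyl enzyme, changed by -0.60, EARS2 by -0.59, IARS2 by -0.57 and YARS2 by -0.56. FARS2 (0.29), AARS2 (0.18) and CARS2 (0.14) rose, and the call of AARS2 was lost without shGFP replicate 1 or without shNRF2 replicate 1.

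The 12 cytosolic members known as ATF4 targets had 10 lower and 1 higher in H2122 and 11 lower and 0 higher in H460 after NRF2 knockdown, with medians of -0.60 in H2122 and -0.52 in H460. The 8 other cytosolic members had 7 lower and 0 higher in H2122 with a median of -0.71, and 6 lower and 1 higher in H460 with a median of -0.36. Over all genes tested, 38.5% were lower and 48.8% higher in H2122, and 39.0% were lower and 40.9% higher in H460. A difference between the known targets and the rest was not tested. ATF4 itself had 106, 104 and 111 FPKM in H2122 shNRF2 cells and 100, 98.6 and 105 FPKM in H2122 shGFP cells, overlapping and called at 0.08. In H460 it had 119, 112 and 112 FPKM in shNRF2 cells and 223, 231 and 244 FPKM in shGFP cells, a change of -1.02. The ATF4 transcript was lower in H460 alone, and line and time cannot be told apart here. The part of ATF4 in the synthetase changes was not tested in either line. Among 21 other known ATF4 targets, 14 of 20 tested fell in each line, with 6 higher in H2122 and 5 higher in H460. XPOT, the exporter of tRNAs from the nucleus, changed by -1.08 in H2122 and -0.68 in H460.

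The NRF2 knockdowns of the lines share no library and can be set side by side. Called lower in both were 15 of 20 cytosolic genes and 7 of 16 mitochondrial genes, and called higher in both were 0 of 20 and 0 of 16. Over the 10731 genes tested in both lines, 29.0% were lower in both, 29.7% were higher in both and 12.8% had opposite calls. Opposite calls were made for CARS, HARS, AARS2, CARS2 and HARS2. The difference itself, H2122 minus H460, was tested with an interaction term, which called 71.6% of 12798 genes, 37.4% higher and 34.3% lower, with a median of 0.02. It called 15 of 20 cytosolic genes, 11 lower and 4 higher (median -0.20), and 10 of 16 mitochondrial genes, 7 lower and 3 higher (median -0.12). The share of members called is close to that over all genes in the cytosolic set and below it in the mitochondrial set.

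MARS2 differed most between the lines. Against its H2122 values given above, it had 12.1, 11.2 and 12.2 FPKM in H460 shNRF2 cells and 11.9, 11.6 and 12.6 FPKM in H460 shGFP cells, with no call (-0.02, limma, adjusted p = 0.714) and a difference between the lines of -1.70 ± 0.072 (limma, adjusted p = 3.99e-10). The shGFP libraries of the lines overlapped for MARS2. CARS2, the mitochondrial cysteinyl enzyme, stood at 12.4, 12.4 and 12.7 FPKM in H2122 shNRF2 cells against 22.2, 23.3 and 24.1 FPKM in H2122 shGFP cells, and at 20.4, 20.8 and 21.1 FPKM in H460 shNRF2 cells against 19.2, 19.3 and 17.9 FPKM in H460 shGFP cells (difference -0.98 ± 0.0549). Its cytosolic counterpart CARS went the other way: in H460 it had 11.4, 10.6 and 10.4 FPKM in shNRF2 cells against 14.6, 15.1 and 14.7 FPKM in shGFP cells (-0.42), which with the rise in H2122 gives a difference of 0.98 ± 0.0541 (limma, adjusted p = 4.72e-09). The cysteinyl pair moved in opposite directions within each line, although the H460 rise of CARS2 was not called by limma-voom on recovered reads. WARS fell less in H2122 (difference 0.67 ± 0.0501), and FARSA (-0.78 ± 0.0974), HARS (-0.65 ± 0.0476) and FARSB (-0.64 ± 0.0568) were lower in H2122 relative to H460. GARS, TARS, YARS, AARS, SARS, IARS2, YARS2 and RARS2 had differences of at most 0.05 in size, none of them called.

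**Figure D2:**
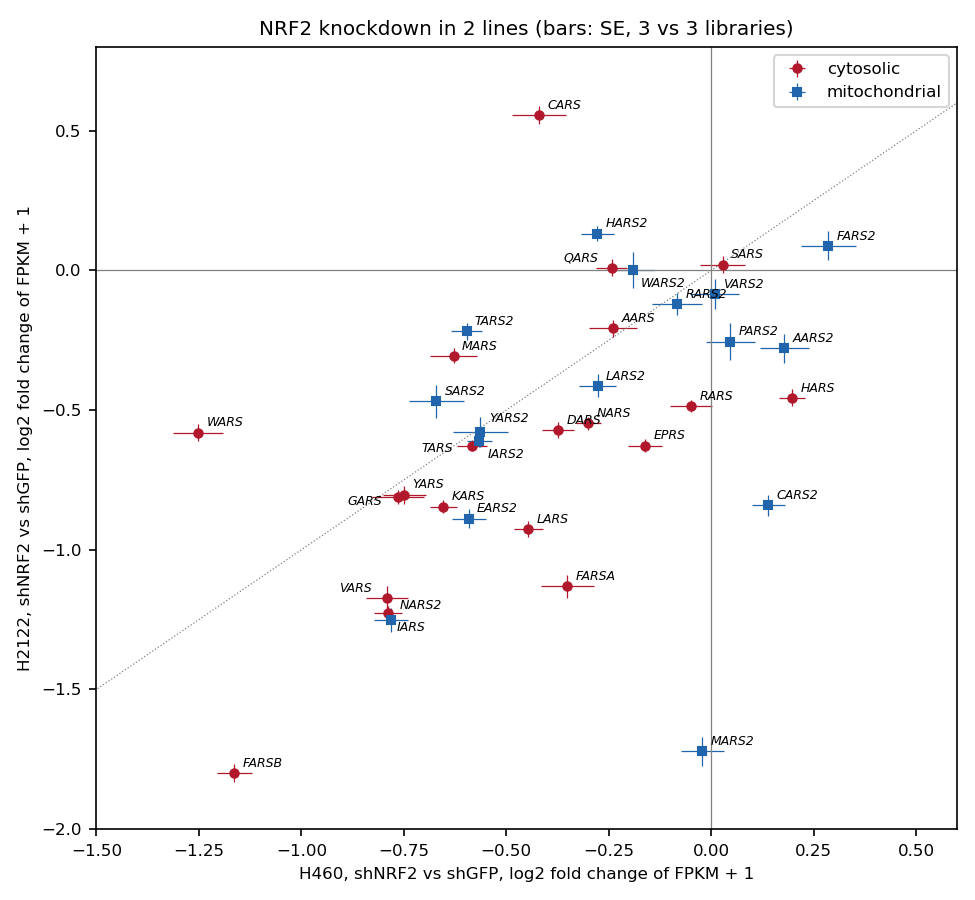
Log2 fold change of FPKM + 1 after NRF2 knockdown in H2122 (vertical axis) and in H460 (horizontal axis), with bars for the SE over 3 against 3 libraries, red circles for cytosolic and blue squares for mitochondrial members. Points on the dotted line changed equally in both. MARS2 lies at -1.72 in H2122 and -0.02 in H460, CARS lies above 0 in H2122 and below 0 in H460, and CARS2 lies on the reverse side.

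NR0B1 knockdown in H460 did not move the synthetase genes one way. Of 20 cytosolic genes 8 rose, 6 fell and 6 were not called (median 0.02), and of 16 mitochondrial genes 3 rose, 7 fell and 6 were not called (median -0.05). Over all genes the median was -0.02 with 69.8% called, 33.1% higher and 36.8% lower, and after rescaling to a common total the share of calls that were higher was 57.3% rather than 47.3%. AARS had the largest cytosolic rise, with 61.7, 71.2 and 61.8 FPKM in shNR0B1 cells against 39.9, 44.1 and 46.7 FPKM in shGFP cells (0.56 ± 0.058, limma, adjusted p = 1.32e-06). FARSB fell, with 63.5, 58.9 and 60.4 FPKM in shNR0B1 cells against the shGFP values given above (-0.63 ± 0.0429), as did WARS, with 104, 127 and 105 FPKM (-0.42 ± 0.0608), KARS (-0.37), QARS (-0.33), IARS (-0.27) and NARS (-0.18). The rises of CARS, HARS, SARS, EPRS, YARS, TARS and DARS lay between 0.10 and 0.27, and that of DARS (limma, adjusted p = 0.0456) was lost in 4 of the fits that left out 1 library. All 3 scaffold genes of the complex fell, AIMP2 by -0.52, AIMP1 by -0.49 and EEF1E1 by -0.30.

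The shNR0B1 libraries were unlike one another for the ATF4 targets. Replicate 2 was the highest of the 3 libraries for 11 of the 12 cytosolic members known as ATF4 targets and for 1 of the 8 other cytosolic members, and replicate 3 was the lowest for 10 of the 12. The same library was the highest for 20 of the 21 other ATF4 targets, such as ASNS, asparagine synthetase, at 36.2, 51.2 and 34.5 FPKM and PSAT1, an enzyme of serine synthesis, at 69.0, 90.5 and 65.4 FPKM in the shNR0B1 libraries. The known targets among the cytosolic members had 6 higher and 3 lower against shGFP cells with all 3 libraries (median 0.08), and 4 higher and 4 lower without replicate 2 (median 0.02), a count added after the data had been seen. Without it TARS and YARS were no longer called and GARS was called lower. Over all 20 cytosolic genes the counts without replicate 2 were 6 higher and 7 lower. With all libraries, 33.1% of all genes tested were higher and 36.8% lower. The shares over all genes without replicate 2 are not given here. How often each library was the highest over all genes was not counted, so the skew may not be particular to these genes. In shSNW1 cells replicate 2 was the highest for 9 of the 12 known targets and 6 of the 8 other cytosolic members. It was the highest for 6 of the 21 other ATF4 targets.

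Of the mitochondrial members, HARS2 fell most after NR0B1 knockdown, with 20.2, 18.8 and 19.5 FPKM in shNR0B1 cells against 34.3, 33.7 and 33.6 FPKM in shGFP cells (-0.77 ± 0.0405, limma, adjusted p = 2.11e-09). HARS, its closest relative, rose to 52.9, 53.7 and 52.9 FPKM in shNR0B1 cells against the shGFP values given above (0.27 ± 0.0318, limma, adjusted p = 5.14e-06). The groups of both genes were well separated, and their directions were opposite. HARS and HARS2 lie head to head, with starts 85 bases apart, so the stretch between them serves as the upstream sequence of both and is printed here for that reason, on the strand of HARS2 with no base marked (RefSeq, GRCh38.p14, chr5:140691371-140691454).

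HARS and HARS2, between the starts: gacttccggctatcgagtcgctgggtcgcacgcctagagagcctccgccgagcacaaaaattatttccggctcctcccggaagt

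The pair moved together after SNW1 knockdown, where HARS had 62.3, 64.7 and 64.2 FPKM (0.53 ± 0.0318) and HARS2 had 43.8, 45.8 and 44.4 FPKM (0.39 ± 0.0405), and in opposite directions after both NRF2 knockdowns. The genes are closely related copies, so some reads may have been assigned to the wrong one. LARS2, the mitochondrial leucyl enzyme, rose after NR0B1 knockdown, with 13.8, 13.0 and 14.3 FPKM in shNR0B1 cells against 8.52, 7.84 and 8.78 FPKM in shGFP cells (0.65 ± 0.0454, limma, adjusted p = 3.03e-08), and AARS2, the mitochondrial alanyl enzyme, rose to 6.02, 6.16 and 5.88 FPKM against 3.26, 3.91 and 3.96 FPKM in shGFP cells (0.58 ± 0.06). On the scale of FPKM + 1 the 2 alanyl enzymes rose by like amounts. The ratios of mean FPKM, shNR0B1 over shGFP, were 1.49 for AARS and 1.62 for AARS2. WARS2 changed by -0.38, EARS2 by -0.29, NARS2 by -0.28 and MARS2 by -0.24. The remaining mitochondrial calls, IARS2 at 0.08, SARS2 at -0.19 and YARS2 at -0.19, were each lost in at least 2 of the fits that left out 1 library.

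**Figure D3:**
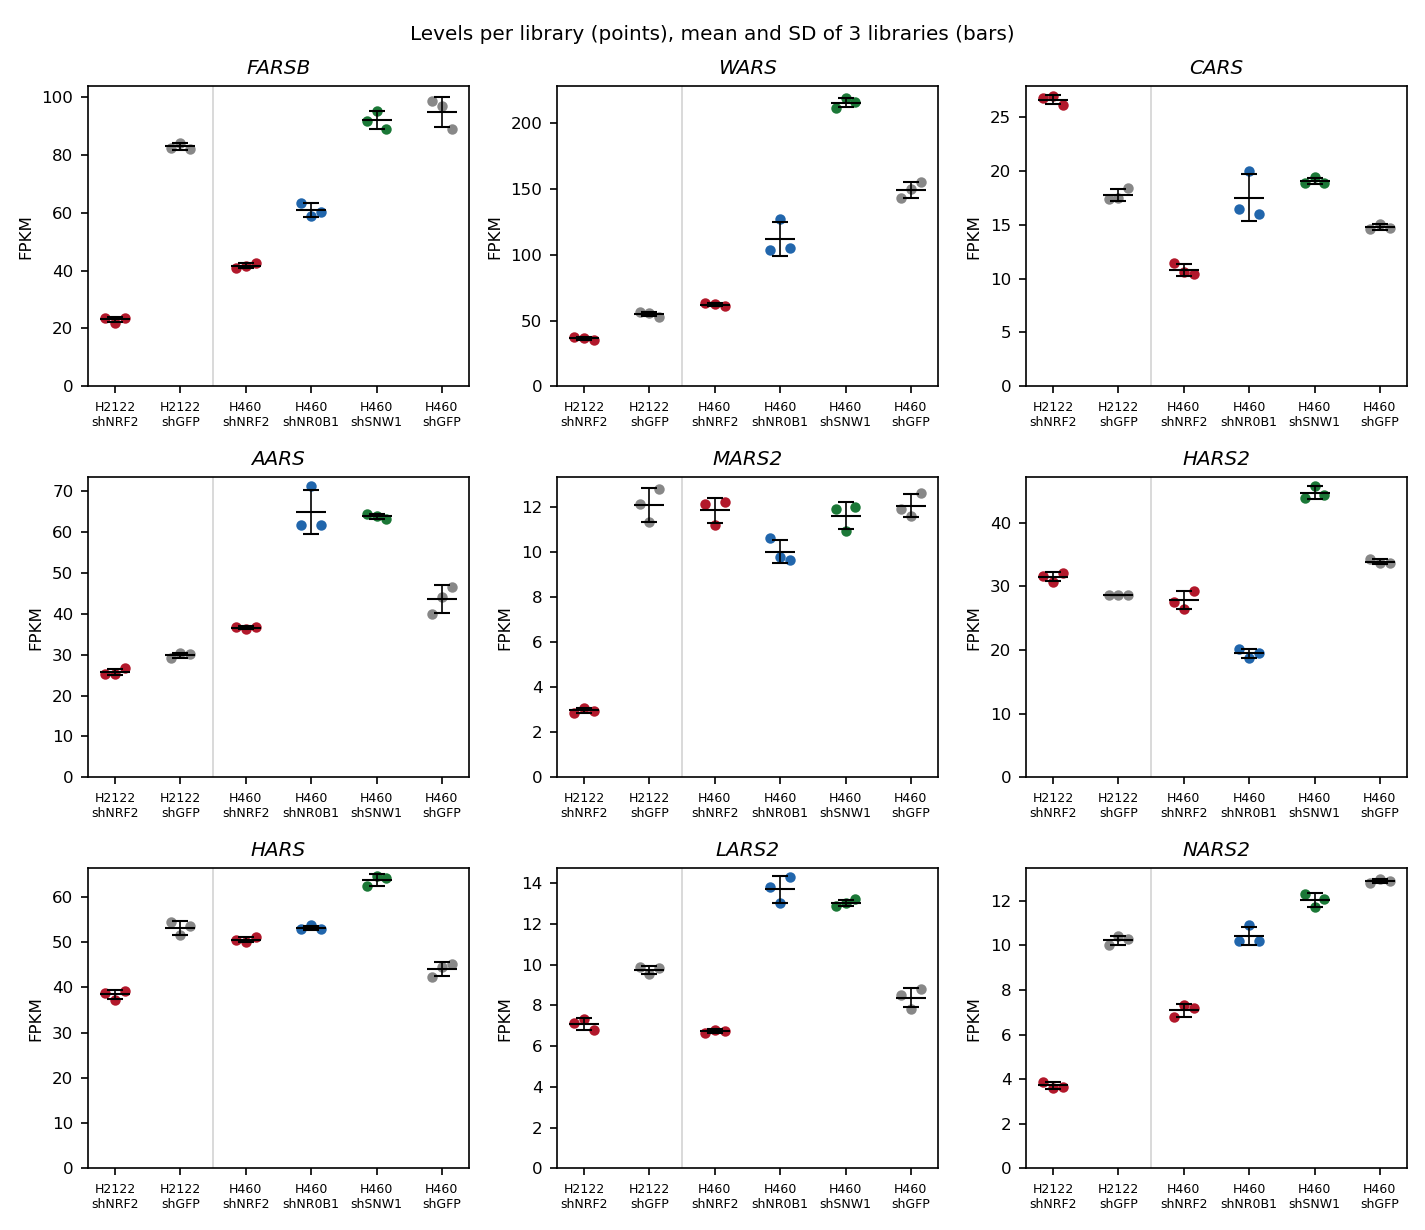
FPKM of 9 members in every knockdown library, with H2122 groups left of the grey line and H460 groups right of it, points for libraries and black bars for the mean and SD of 3 libraries. Each axis starts at 0. In H460 WARS is lowest in shNRF2 and highest in shSNW1 cells, replicate 2 of shNR0B1 is the highest point of its group for WARS, CARS and AARS, and HARS2 is lowest in shNR0B1 cells.

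SNW1 knockdown raised most cytosolic synthetase genes. Of 20, 12 rose, 2 fell and 6 were not called (median 0.21), while of 16 mitochondrial genes 5 rose, 7 fell and 4 were not called (median -0.10). Over all genes the median was -0.03 with 67.2% called, 30.8% higher and 36.4% lower, and after rescaling to a common total 56.5% of calls were higher rather than 45.8%, and 4 rather than 7 mitochondrial genes were lower, as by limma-voom. The cytosolic sum was 1604 to 1662 FPKM in shSNW1 libraries against 1401 to 1428 FPKM in shGFP libraries, and the ratio of the cytosolic to the mitochondrial sum was 4.08 to 4.24 in shSNW1 libraries against 3.39 to 3.50 in shGFP libraries (without IARS2, 7.30 to 7.68 in shSNW1 against 6.56 to 6.85 in shGFP libraries). Of the 12 known ATF4 targets 9 rose, 0 fell and 3 were not called (median 0.34), while of the 8 other cytosolic members 3 rose, 2 fell and 3 were not called (median -0.00). ATF4 itself changed by -0.19, and of 20 other ATF4 targets tested 7 rose and 4 fell.

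WARS had 212, 219 and 216 FPKM in shSNW1 cells against 143, 150 and 155 FPKM in shGFP cells (0.53 ± 0.0608, limma, adjusted p = 4.42e-06). YARS rose to 62.5, 65.9 and 64.8 FPKM in shSNW1 cells against 41.6, 44.6 and 44.2 FPKM in shGFP cells (0.56 ± 0.0523, limma, adjusted p = 6.12e-07). AARS rose to 64.5, 64.0 and 63.2 FPKM (0.54 ± 0.058) and SARS to 43.4, 45.4 and 42.9 FPKM against 29.1, 30.6 and 30.3 FPKM in shGFP cells (0.53 ± 0.0555). These 4 genes and HARS had the largest cytosolic rises, each without overlap. QARS went against the set, with 60.4, 62.9 and 61.3 FPKM in shSNW1 cells against 87.4, 89.0 and 96.1 FPKM in shGFP cells (-0.55 ± 0.0378, limma, adjusted p = 2.8e-08). The second cytosolic call lower, DARS at -0.09 (limma, adjusted p = 0.0499), had overlapping groups and was lost under each of the 7 other settings tried. Among mitochondrial members LARS2 (0.58), AARS2 (0.58), HARS2 (0.39), TARS2 (0.29) and RARS2 (0.15) rose, and EARS2 (-0.39), YARS2 (-0.30), SARS2 (-0.24), FARS2 (-0.20), WARS2 (-0.19), IARS2 (-0.17) and CARS2 (-0.14) fell. The rise of RARS2 was lost in 5 and the fall of FARS2 in 3 of the fits that left out 1 library.

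The 3 H460 knockdowns were also compared with each other, without the shGFP libraries as a reference. In shNRF2 against shSNW1 cells, 19 of 20 cytosolic genes were lower and QARS was higher (0.31 ± 0.0378), with a median of -0.64, while 10 of 16 mitochondrial genes were lower and 2 higher (median -0.25). Over all genes 78.7% were called, 39.6% higher and 39.1% lower. WARS had the widest gap, at -1.78 ± 0.0608, followed by YARS at -1.30 ± 0.0523. In shNRF2 against shNR0B1 cells 17 of 20 cytosolic genes were lower and 1 higher (median -0.50), and 8 of 16 mitochondrial genes were lower and 5 higher (median -0.19), with 74.5% of all genes called, 37.8% higher and 36.7% lower. With all libraries brought to 1 common total, which moves the median of all genes by -0.10, 39.1% of all calls were higher rather than 50.7%, 19 cytosolic genes were lower and the 1 called higher, QARS, was lost, while 9 mitochondrial genes were lower and 2 higher. In shNR0B1 against shSNW1 cells 13 of 20 cytosolic genes were lower and 3 higher (median -0.22), and 6 of 16 mitochondrial genes were lower and 5 higher (median 0.02), with 67.8% of all genes called, 34.7% higher and 33.1% lower. WARS was lower there by -0.94 ± 0.0608, HARS2 by -1.16 ± 0.0405, FARSB by -0.59 and KARS by -0.57.

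The knockdowns against shGFP share their control libraries in H460, so their values are only set side by side. WARS, for example, changed by -1.25, -0.42 and 0.53 after NRF2, NR0B1 and SNW1 knockdown in H460. For the 6 members with TGATGCAA in the printed promoters, the changes after NRF2 knockdown in H2122 were -1.23 (IARS), -0.63 (TARS), -0.55 (NARS), -0.31 (MARS), -0.21 (AARS) and 0.56 (CARS). After NRF2 knockdown in H460 all 6 were called lower, at -0.79 (IARS), -0.63 (MARS), -0.58 (TARS), -0.42 (CARS), -0.30 (NARS) and -0.24 (AARS). FARSB, in whose window no such match was found, changed by -1.80 in H2122 and -1.16 in H460.

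For the compounds, levels are given only as ratios to the mean of the 3 DMSO libraries. The gene lengths behind the FPKM values of the compound columns differ from those of the knockdown columns, by a factor of 0.00646 (VARS) to 6.02 (KARS) among the members, so no level is compared across the experiments. Under BPK29 the cytosolic members were called in both directions, and every mitochondrial call was lower. Of 20 cytosolic genes 8 rose, 7 fell and 5 were not called (median 0.04), and of 16 mitochondrial genes 0 rose, 11 fell and 5 were not called (median -0.15). Over 11461 genes 50.4% were called, 21.1% higher and 29.3% lower, with a median of -0.02, and after rescaling to a common total 61.2% of calls were higher rather than 41.9%. Under that scaling 12 cytosolic genes were higher and 5 lower, and 0 mitochondrial genes were higher and 8 lower.

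The 8 cytosolic rises under BPK29 were all among the 12 known ATF4 targets. GARS stood at 1.28, 1.29 and 1.30 times the DMSO mean in BPK29 libraries, against 0.999, 1.01 and 0.99 in the DMSO libraries (0.36 ± 0.0258, limma, adjusted p = 5.74e-06). CARS stood at 1.27, 1.28 and 1.31 times the DMSO mean in BPK29 libraries, against 1.02, 1.01 and 0.969 in DMSO libraries (0.34 ± 0.0309), and AARS at 1.27, 1.22 and 1.20 in BPK29 libraries, against 0.973, 0.985 and 1.04 in DMSO libraries (0.30 ± 0.0334). MARS (0.17), EPRS (0.17), SARS (0.14), IARS (0.10) and WARS (0.10) rose less. The known targets were not alike, since TARS at -0.20 and LARS at -0.11 fell, LARS losing its call after rescaling to a common total. The 8 other cytosolic members had 0 higher and 5 lower (median -0.12), among them VARS, at 0.826, 0.756 and 0.79 times the DMSO mean in BPK29 libraries against 1.02, 0.982 and 1.00 in DMSO libraries (-0.34 ± 0.0326), and RARS (-0.22). After rescaling, DARS, FARSA and FARSB of these 8 were called higher as well, at 0.10 to 0.13. Of 19 other ATF4 targets tested 13 rose and 1 fell (median 0.23), with ASNS at 0.96 and PSAT1 at 0.52, while ATF4 itself changed by -0.06. Over all genes tested, 21.1% were higher and 29.3% lower. The compound libraries were also uneven for the full list of 21 other ATF4 targets. DMSO replicate 2 was the highest of its group for 14 and the lowest for 0, and BPK29 replicate 1 was the lowest of its group for 15.

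Mitochondrial falls under BPK29 were led by SARS2, at 0.664, 0.558 and 0.611 times the DMSO mean in BPK29 libraries, against 1.05, 0.923 and 1.02 in DMSO libraries (-0.59 ± 0.0618, limma, adjusted p = 4.66e-05). TARS2 stood at 0.732, 0.721 and 0.75 in BPK29 libraries, against 0.99, 0.971 and 1.04 in DMSO libraries (-0.44 ± 0.0293). Neither gene had overlapping groups. CARS2 (-0.33), LARS2 (-0.30), WARS2 (-0.28), IARS2 (-0.18), VARS2 (-0.18), MARS2 (-0.17), AARS2 (-0.13), NARS2 (-0.13) and EARS2 (-0.09) also fell. FARS2, HARS2, PARS2, RARS2 and YARS2 were not called. CARS and CARS2 again moved apart, as they did in each NRF2 knockdown.

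**Figure D4:**
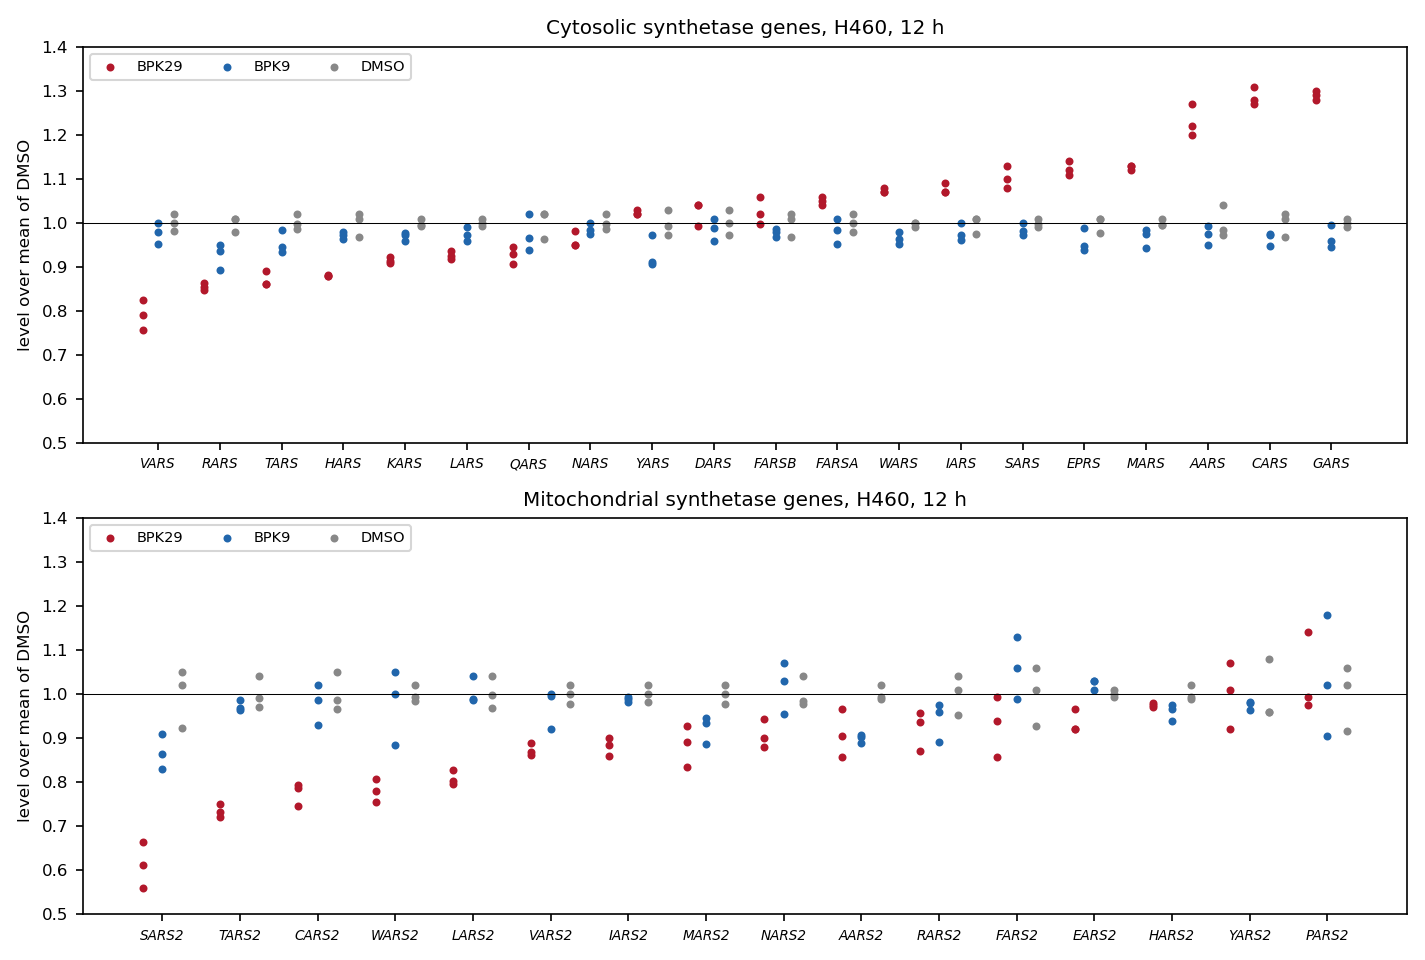
Level of each member in BPK29 (red), BPK9 (blue) and DMSO (grey) libraries of H460 at 12 h, as the ratio to the mean of the 3 DMSO libraries, with 1 point per library and genes ordered by the BPK29 change. The vertical axis starts at 0.5. BPK29 points of GARS, CARS and AARS lie at 1.20 to 1.31, those of SARS2 at 0.558 to 0.664, and BPK9 points lie close to 1 for most genes.

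BPK9 at the same dose and time changed no member past the threshold. Limma called 0 of 20 cytosolic and 0 of 16 mitochondrial genes and 0.00873% of all genes, which is 1 gene. At an unadjusted p below 0.05 there were 5 cytosolic and 3 mitochondrial genes, and limma-voom on the recovered reads called 1 member, RARS, at -0.10 (adjusted p = 0.0357). The member changes lay between -0.17 (SARS2) and 0.08 (FARS2), with medians of -0.04 for cytosolic and -0.03 for mitochondrial genes. All 20 cytosolic values were below 0 by at most 0.11. The share of all genes below 0, or below an unadjusted p of 0.05, was not counted, so these member counts have no background to be read against. RARS stood at 0.892, 0.936 and 0.95 times the DMSO mean in BPK9 libraries, against 0.979, 1.01 and 1.01 in DMSO libraries (-0.11 ± 0.0293, limma, adjusted p = 0.184).

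Set directly against BPK9, BPK29 had 10 of 20 cytosolic genes higher and 6 lower (median 0.08), and 0 of 16 mitochondrial genes higher and 10 lower (median -0.15). Over all genes 46.9% were called, 19.7% higher and 27.2% lower, and 59.1% of calls were higher rather than 42.0% after rescaling to a common total, which left 3 cytosolic and 6 mitochondrial genes lower. The difference was 0.41 ± 0.0258 for GARS, 0.38 ± 0.0309 for CARS and 0.33 ± 0.0334 for AARS, and -0.42 ± 0.0618 for SARS2, -0.40 ± 0.0293 for TARS2 and -0.31 ± 0.0326 for VARS. Of the 12 known ATF4 targets 9 were higher and 2 lower. FARSA (0.10) and YARS (0.13) were higher against BPK9 and not called against DMSO. MARS2 (-0.06) and AARS2 (0.01) were called lower under BPK29 against DMSO and not called against BPK9, where their BPK9 libraries also lay below the DMSO libraries without a call.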

How the data were processed

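Polyadenylated RNA of 27 libraries in 9 groups of 3 was used, and the members and gene lists were chosen with earlier results of these data known. The authors deposited FPKM values per gene symbol. The submitters' processing notes name STAR, featureCounts, DESeq2, Bowtie2, HOMER and hg19, without versions or roles, and how strand was counted is not stated in the sources used here. The TruSeq RNA kit (version 2) named in the labels' protocols does not mark strand. The deposited NR0B1 peak list was not used here, and 0 columns were left out.

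Whole reads were recovered from the steps of the low FPKM values in the deposited columns, for 18331 of 18335 genes in the knockdown columns and 16742 of 16745 genes in the compound columns (tolerance 0.02 reads). Replicate libraries differed by more than sampling noise, with a chi-square per gene of 1.25 to 5.75. The highest values, 5.75 and 4.49, were those of H460 shGFP replicate 3 against replicates 1 and 2. Every other pair was at most 2.46. The H460 shGFP libraries are the controls of all 3 H460 knockdowns. Tests used limma 3.58.1 in R 4.3.3 with a mean trend on log2(FPKM + 1), for genes reaching 1 FPKM in 3 or more fitted libraries, with Benjamini-Hochberg adjustment and a threshold of 0.05. The 6 H2122, the 12 H460 knockdown and the 9 compound libraries were each fitted together, and the difference between lines was an interaction term over 12 libraries. The fit was tested on simulated data. Promoters were searched with Python 3.11.15.

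Values in every library were given for up to 5 cytosolic and up to 4 mitochondrial members with the largest absolute change in any comparison and for members whose directions differed, and a few others, such as both FARS subunits, were added after their values were seen. Alternatives were a pseudocount of 0.1, no filter, rescaling to a common total, median-ratio scaling in the fit, limma-voom on recovered reads, only the 2 groups compared, a replicate block and leaving out each library. Replicate numbers were not taken as a pairing.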

Additional observations from a re-analysis of the deposited data

Results flagged for a closer look

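The changes after NRF2 knockdown differed between the cell lines for 25 members, by the interaction term of limma with Benjamini-Hochberg adjustment over all genes. These are 25 of 36 members, beside 71.6% of all genes tested, so the count is near the background. Each value is the log2 change in H2122 minus that in H460, and line and time (24 h in H2122, 72 h in H460) cannot be told apart. Of the cytosolic members, the difference was above 0 for CARS (0.98), WARS (0.67), MARS (0.32) and QARS (0.25). It was below 0 for FARSA (-0.78), HARS (-0.65), FARSB (-0.64), LARS (-0.48), EPRS (-0.47), IARS (-0.44), RARS (-0.44), VARS (-0.38), NARS (-0.25), DARS (-0.20) and KARS (-0.19). Of the mitochondrial members, it was above 0 for HARS2 (0.41), TARS2 (0.38) and WARS2 (0.19). It was below 0 for MARS2 (-1.70), CARS2 (-0.98), NARS2 (-0.47), AARS2 (-0.46), EARS2 (-0.30), PARS2 (-0.30) and FARS2 (-0.20). The call of WARS2 was lost in 8 and that of FARS2 in 5 of the fits that left out 1 library.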

How the results depend on the processing

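Of 300 list counts under other settings, 281 stayed within 1.5 times the reported count, and of 288 with 1 library left out, 276 did. For single members, 2579 of 2700 values kept their call or lack of one, 72 lost the call, 45 gained one and 4 reversed. A reversal is a change of sign with a call in either fit. Genes called in neither fit count as kept whatever their sign. The causes were not tested.

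For shNRF2 against shGFP in H2122, mitochondrial genes called higher numbered 0 with median-ratio scaling in the fit (1 reported), where QARS reversed to -0.0945 and SARS to -0.0802. For shNR0B1 against shGFP, limma-voom called 5 mitochondrial genes higher (3 reported). For shSNW1 against shGFP, cytosolic genes lower numbered 1 (2 reported) with a pseudocount of 0.1, without a filter, after rescaling to a common total, with median-ratio scaling, by limma-voom and with the 2 groups alone, and mitochondrial genes lower numbered 4 (7 reported) after rescaling and by limma-voom. For shNRF2 against shNR0B1, cytosolic genes higher numbered 0 (1 reported, QARS) after rescaling, with median-ratio scaling and by limma-voom, QARS reversing to -0.0263 after rescaling and -0.0267 by limma-voom, and mitochondrial genes higher numbered 2 (5 reported) under the same pair of settings. For BPK9 against DMSO, limma-voom called 1 cytosolic gene lower (0 reported). For BPK29 against BPK9, rescaling gave 3 cytosolic (6 reported) and 6 mitochondrial genes lower (10 reported).

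Leaving out 1 library gave 1 to 2 mitochondrial genes higher after NRF2 knockdown in H2122, 1 to 3 cytosolic genes lower after SNW1 knockdown, 0 to 1 cytosolic genes higher for shNRF2 against shNR0B1 and 3 to 4 mitochondrial genes higher for shNR0B1 against shSNW1 (5 reported).

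Correlations of same-numbered libraries were -0.182 to 0.157, and in 0 of 10 comparisons were all of them over 0.1. In H2122 they were 0.0882, 0.146 and 0.122, each library correlating best with its own number, a hint from the data and not from the design. With a replicate block, shNRF2 against shNR0B1 had 0 cytosolic genes higher instead of 1, and no other list count moved by over 1.5 times. Under the block DARS lost its call and IARS gained one, at -0.08, after SNW1 knockdown.

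Depth limits PARS2 most, with 98 reads in its lowest library.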

Other observations

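Genes that work beside the synthetases also changed after the knockdowns against shGFP, by limma with Benjamini-Hochberg adjustment. Over all genes 38.5% fell after NRF2 knockdown in H2122, and 39.0%, 36.8% and 36.4% fell after NRF2, NR0B1 and SNW1 knockdown in H460. Of 6 genes for tRNA export and delivery (XPOT and the cytosolic elongation factors), 6 fell and 0 rose after NRF2 knockdown in H2122, 4 fell and 0 rose after NRF2 knockdown in H460, 3 fell and 0 rose after NR0B1 knockdown and 2 fell and 1 rose after SNW1 knockdown. EEF1E1 is left out of these counts, a choice made after the data had been seen, because it is counted with the scaffold genes. EEF1B2, an exchange factor subunit for the elongation factor that carries charged tRNA to the ribosome, changed by -1.14, -0.64, -0.67 and -0.24 in that order. Of 4 mitochondrial elongation factor genes, 3 fell after NRF2 knockdown in H2122, and 2 fell in each of the 3 H460 knockdowns, where 0 rose after NRF2, 1 after NR0B1 (GFM2, 0.23) and 1 after SNW1 knockdown (TUFM, 0.11). GFM1, the mitochondrial translocation factor, changed by -0.73 after NRF2 knockdown in H2122, by -0.01 without a call after NRF2 knockdown in H460, and by -0.88 after NR0B1 knockdown. GATC, a subunit of the amidotransferase that completes glutaminyl-tRNA in mitochondria, changed by 0.10, 0.32, 0.42 and 0.24 in the same order. Of 8 genes for the eIF2 kinases and related factors, 5 rose and 3 fell in H2122, and 3 rose and 4 fell after NRF2 knockdown in H460. These genes have no test as groups.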
